A study of Mus musculus with 3 samples.

Results

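Myeloid cells carrying a transcriptional interferon programme made up 161 of the 10550 cells that passed quality control in 3 single-cell libraries from mouse hearts. A cell entered this set when at least 4 of 7 interferon-stimulated transcripts (Ifit1, Ifit2, Ifit3, Rsad2, Cmpk2, Cxcl10 and Mx1) were detected in it. It also had to hold at least 1 unique molecular identifier (UMI, 1 counted RNA molecule) of Csf1r, or to take at least 0.3% of its UMIs from C1qa, C1qb and C1qc. Csf1r encodes the receptor for the macrophage growth factor CSF1, and the C1q genes encode a complement component made by tissue macrophages. The remaining 9002 cells that met this myeloid criterion without 4 of the transcripts are called the other myeloid cells. The members were thus selected on measured values, and levels of the 7 rule genes within them are given as a description of what was selected.

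Cells came from C57BL/6 mice that underwent surgery at postnatal day (P) 10 and whose hearts were taken at P13, which was 3 days later. P10-sham_vehicle mice had a sham operation and vehicle, P10-MI_vehicle mice had myocardial infarction (MI), made by tying off the left anterior descending artery, and vehicle, and P10-MI_SB225002 mice had the ligation and SB225002, a CXCR2 antagonist. CXCR2 is a chemokine receptor through which neutrophils are recruited. The infarct zone (IZ) and border zone (BZ) of several hearts were pooled per library and digested with collagenase, and living cells positive for CD45 and F4/80 were sorted, so each library mixes animals and its cells cannot be assigned to single hearts. With 1 library per condition there is no replicate, so a difference between libraries cannot be told apart from a difference between pools, and no test was made. All intervals are exact 95% intervals that cover counting error only.

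Type I interferons signal through the receptor IFNAR1/IFNAR2 to a complex of transcription factors that holds IRF9 and binds the interferon-stimulated response element in the promoters of interferon-stimulated genes. The proteins made in this way block viral replication, sense nucleic acids, tag proteins with ISG15, and feed back to raise or limit the response. In the infarcted heart, macrophages are known to enter this programme when they sense nucleic acids from dying cells.

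The libraries held 29323567, 32498608 and 34235864 UMIs in the order sham, MI and MI with SB225002, which is kept throughout. Quality control left 2352, 3454 and 4744 cells, of which 2182, 2996 and 3985 were myeloid. Of these myeloid cells, 19, 38 and 104 were members, with a median of 11706, 7792.5 and 9196.5 UMIs against 8747, 6667.5 and 5996 in the other myeloid cells. Between pairs of libraries 786, 842 and 1356 cell barcodes recurred, and 1 of these belonged to a member in both libraries of the pair. Macrophage markers that the rule did not use were present in members, with Adgre1, which encodes F4/80, at 479, 382 and 326 CPM (UMIs of the gene per 1000000 UMIs counted) and Cd68 at 513, 535 and 666 CPM. Both groups of cells had passed the same Csf1r or C1q gate. Csf1r itself stood at 821, 670 and 507 CPM in members and at 875, 783 and 675 CPM in the other cells.

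The rule genes are antiviral effectors and a chemokine. IFIT1, IFIT2 and IFIT3 bind viral or unmodified RNA, RSAD2 (viperin) makes a chain-terminating nucleotide, CMPK2 is a mitochondrial nucleotide kinase encoded next to Rsad2, MX1 is a dynamin-like GTPase that traps viral nucleocapsids, and CXCL10 attracts T and NK cells through CXCR3. Ifit1 reached 368, 393 and 427 CPM in members and 5.62, 6.03 and 8.74 CPM in the other cells. For Rsad2 the levels were 394, 472 and 526 CPM against 3.94, 4.16 and 8.33 CPM. These are the values the members were picked by.

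Cxcl10 was the least evenly spread rule gene. It was detected in 57.9%, 47.4% and 53.8% of members, while each of the other 6 was detected in 63.2% to 92.1%. Its level in members was 723, 585 and 798 CPM, and the single cell richest in it supplied 30.8%, 26.1% and 16.0% of those UMIs. For Rsad2 in the MI library 1 cell of 38 supplied 36.3%. Members thus ranged widely among themselves, with the rule genes together taking 0.0373% to 1.13% of a cell's UMIs in the sham library, 0.0286% to 2.48% in the MI library and 0.0412% to 2.64% in the SB225002 library, with medians of 0.129%, 0.145% and 0.165%. All 7 rule genes were detected in 5, 7 and 26 members, and exactly 4 in 6, 14 and 28. Just outside the threshold, 24, 28 and 51 myeloid cells had 3 rule genes.

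Members held 1.14%, 1.62% and 3.76% of the myeloid UMIs and 37.2%, 50.3% and 68.3% of the rule-gene UMIs. This excess follows from picking the members by these genes. Types that are not myeloid were counted in the same way, and they differed among themselves. None of 16, 52 and 33 B cells and none of 6, 8 and 5 T and NK cells had 4 rule genes, which for B cells allows a share of up to 18.8%, 5.77% and 9.09% when 0 is set to a limit of 3 cells. Ifit1 was seen in 0%, 0% and 3.03% of those B cells, whose median depth was 6181, 3674.5 and 2051 UMIs, and in 3.84%, 3.75% and 4.46% of the other myeloid cells. Among all cells that were not myeloid, 2 of 170, 7 of 458 and 13 of 759 had at least 4 rule genes. Endothelial cells supplied 2, 1 and 4 of these, or 5%, 1.72% and 2.63% of the 40, 58 and 152 endothelial cells. Fibroblasts supplied 0, 4 and 2, or 0%, 2.09% and 1.32% of fibroblasts. In endothelial cells Ifit1 was seen in 5%, 3.45% and 9.87%. Rsad2 was seen in 32.5%, 15.5% and 17.1% of endothelial cells and in 2.96%, 2.50% and 4.35% of the other myeloid cells. The programme was therefore also seen outside the myeloid gate, at 1.18%, 1.53% and 1.71% of the cells that were not myeloid.

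Promoters of rule genes and of some further interferon genes were searched on both strands within 250 bases before the transcription start. The search was for GAAA followed, after any 2 bases, by a second GAAA, the core of the interferon-stimulated response element. The promoter sequences are those of RefSeq on GRCm38.p6. Stretches around the matches follow for 4 rule genes and Isg15, 5′ to 3′ on the gene's own strand, because these are the genes the set is defined or led by. Capitals mark the match, which reads TTTC, any 2 bases and TTTC where it lies on the opposite strand.
Ifit1, chr19:34640765-34640833, plus strand: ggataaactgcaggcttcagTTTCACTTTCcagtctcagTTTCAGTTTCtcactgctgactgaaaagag
Ifit3, chr19:34583353-34583436, plus strand: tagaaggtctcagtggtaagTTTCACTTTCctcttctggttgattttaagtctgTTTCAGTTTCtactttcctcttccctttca
Rsad2, chr12:26456543-26456592, minus strand: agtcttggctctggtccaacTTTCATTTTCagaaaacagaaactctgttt
Cxcl10, chr5:92349073-92349122, minus strand: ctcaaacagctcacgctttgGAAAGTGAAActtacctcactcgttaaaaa
Isg15, chr4:156200855-156200916, minus strand: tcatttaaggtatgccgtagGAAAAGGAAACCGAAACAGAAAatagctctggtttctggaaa

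Ifit1 and Ifit3 each held 2 matches, both on the opposite strand, starting 104 and 85 bases before the Ifit1 start and 156 and 122 bases before the Ifit3 start. The stretch of Isg15 held 3 overlapping matches that together form 1 run of capitals. Of all 27025 gene symbols with a promoter in the table, 936 (3.46%) held the motif in this window. Among the genes of the interferon lists and the rule it was 34 of the 85 that were in the table (40%). Ifi211 and Ifi213 held 1 match each. No match lay in this window of Ifit2, Cmpk2, Irf7, Isg20, Ifi47 or Oasl2, and Mx1 and Usp18 were not in the table. A match describes these letters and was not tied to binding or to a cause here.

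Interferon genes that the rule did not use were higher in members of every library. The 106 further genes of the interferon lists summed to 21339, 21655 and 21122 CPM in members against 9032, 9118 and 8636 CPM in the other myeloid cells. In the median member they took 2.08%, 1.98% and 1.96% of UMIs, against 0.839%, 0.792% and 0.768% in the median other cell. This median of the other cells was exceeded by 19 of 19, 38 of 38 and 103 of 104 members. The levels in members lay close together across the 3 conditions, and so did those in the other cells.

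These levels were graded rather than confined to members. In myeloid cells with 0 rule genes the further interferon genes took a median of 0.815%, 0.758% and 0.714% of UMIs, with 3 rule genes 1.28%, 1.72% and 1.48%, and with all 7 rule genes 2.98%, 3.26% and 2.91%. Cells with more rule genes were also deeper, with a median of 8362.5, 6224.5 and 5613 UMIs at 0 rule genes and 12036.5, 9621.5 and 9856 UMIs at 3. After each cell was thinned to 2000 UMIs, members held a median of 45, 42 and 40 UMIs of the further genes, cells with 3 rule genes 27.5, 35 and 27, and cells with 0 rule genes 16, 15 and 14. Cells were grouped here by the rule genes they had before thinning. The order was thus also seen when the levels, though not the grouping, were taken at equal depth.

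**Figure D1:**
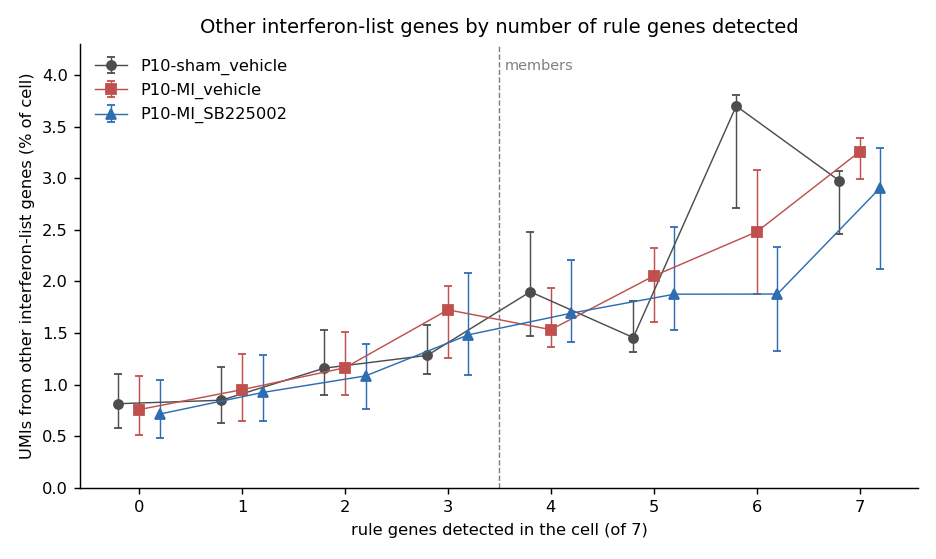
Share of each myeloid cell's UMIs from the 106 interferon-list genes outside the rule (y axis, %) by the number of rule genes detected (x axis); points are medians of cells, bars the quartiles, and the dashed line marks the threshold for members. The medians run from 0.815%, 0.758% and 0.714% at 0 rule genes to 2.98%, 3.26% and 2.91% at 7, with few cells per point among sham members.

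Single members are shown by their rule-gene share and their share of further interferon genes. The latter ran from 1.17% to 4.23% of UMIs in the 19 sham members, from 0.877% to 4.12% in the 38 MI members and from 0.725% to 5.11% in the 104 SB225002 members. The ranges of the 3 libraries overlapped almost fully. In the MI library the cell with the highest rule-gene share (2.48%) was not C1q-high, but it held only 765 UMIs, the fewest of the members there. The other MI members that were not C1q-high had rule-gene shares of at most 0.0460%.

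**Figure D2:**
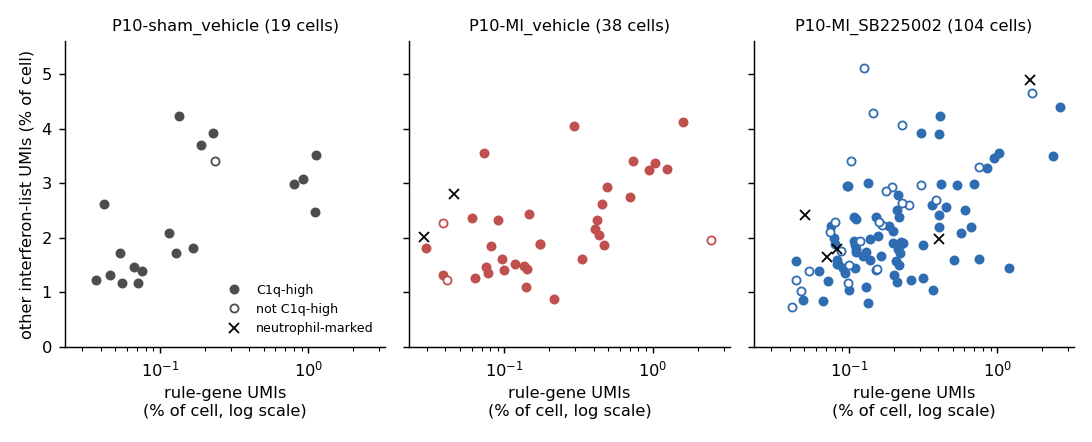
Each point is 1 member cell, plotted by its share of UMIs from the 7 rule genes (x axis, %, log scale) and from the other interferon-list genes (y axis, %), with C1q-high cells filled, others open and neutrophil-marked cells as crosses. The y values of the 3 libraries cover 1.17% to 4.23%, 0.877% to 4.12% and 0.725% to 5.11%.

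Across genes outside the rule, 70 of the 1746 genes that reached 100 CPM in members or other cells were at least 2-fold higher in members in all 3 libraries (4.01%), and 3 were at least 2-fold lower (0.172%). Of the 70 genes, 40 belonged to an interferon list. When every gene that reached 10 CPM in the other cells was taken, 114 of 8520 were higher (1.34%) and 29 lower (0.34%), with a median log2 ratio of -0.02, -0.09 and -0.11. Of the 73 interferon-list genes measured in this way 54 were higher and none was lower. Their medians were 1.91, 1.84 and 1.80. As cells were picked by interferon genes, a share of their companion genes above this background follows the choice of cells and was not tested.

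Isg15 and Usp18, of the ISG15 system, led the genes outside the rule that reached 100 CPM. ISG15 is a ubiquitin-like protein that is joined to other proteins, UBE2L6 is its conjugating enzyme, and USP18 removes it and also blocks signalling at IFNAR2. Isg15 stood at 650, 451 and 868 CPM in members and at 27.0, 18.8 and 48.5 CPM in the other cells, a log2 ratio of 4.60 (4.32 to 4.85), 4.59 (4.32 to 4.84) and 4.16 (4.04 to 4.29). It was detected in 19 of 19, 28 of 38 and 97 of 104 members. Usp18 was at 154, 163 and 181 CPM against 7.25, 6.98 and 9.56 CPM. The 4 genes of the list at 10 CPM or more in the other cells (Isg15, Herc6, Uba7 and Ube2l6) were all higher, with Ube2l6 at log2 ratios of 2.04, 2.74 and 1.97. Usp18 and Isg20, a nuclease that degrades RNA, lay below 10 CPM there, and Isg20 had ratios of 4.57, 3.83 and 3.75.

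Among sensors of nucleic acids, 7 of 10 genes were higher in all libraries. Members of the HIN-200 family led this list. Ifi204 stood at 659, 585 and 635 CPM against 128, 121 and 125 CPM, and Ifi211 at 291, 287 and 230 CPM against 27.1, 28.9 and 26.2 CPM. Zbp1, whose product senses nucleic acids in the Z form and can start necroptosis, was at 218, 158 and 232 CPM against 23.5, 24.4 and 45.3 CPM. The related genes Ifi213 and Ifi209, which were on no list, were among the 10 highest of all genes, with log2 ratios of 4.33, 3.44 and 3.80 and of 3.71, 3.06 and 3.02.

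Of 27 OAS and RNA-restricting effector genes, 23 were higher. The OAS enzymes activate RNase L, PARP14 is an ADP-ribosyltransferase, RTP4 is a chaperone-like effector, and TRIM30A is a tripartite motif protein that restrains inflammatory signalling. Parp14 was at 214, 417 and 260 CPM against 65.6, 59.8 and 61.7 CPM, Rtp4 at 329, 219 and 274 CPM against 66.7, 49.7 and 78.7 CPM, and Trim30a at 359, 314 and 305 CPM against 136, 119 and 101 CPM. Ifi27l2a, the gene of this list with the most UMIs, did not separate members from the rest. Its levels were 4025, 2505 and 1672 CPM in members and 3092, 2128 and 1607 CPM in the other cells, log2 ratios of 0.38, 0.24 and 0.06.

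All 6 guanylate-binding proteins and immunity-related GTPases that were measured were higher; these GTPases attack the vacuoles of intracellular pathogens. Ifi47 was at 184, 166 and 190 CPM against 13.9, 15.1 and 17.0 CPM, and Irgm1 had log2 ratios of 2.87, 2.59 and 2.42. Of 6 schlafen genes, which restrain growth and viral protein synthesis, 5 were higher. Slfn5 had log2 ratios of 2.33, 2.37 and 2.51. The exception was Slfn4, at 12.8, 198 and 317 CPM in members and 18.8, 52.7 and 52.8 CPM in the other cells, log2 ratios of -0.33 (-2.84 to 1.0), 1.92 (1.55 to 2.24) and 2.58 (2.41 to 2.76). Its separation from the other cells was thus seen in the libraries from infarcted hearts and not in sham, where members held 3 UMIs of it.

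Among membrane proteins, 4 of 7 were higher. Ifitm3, which blocks viral fusion, stood at 1578, 2143 and 3110 CPM against 494, 832 and 1074 CPM, and Bst2 (tetherin), which holds budding virions, at 804, 730 and 677 CPM against 231, 204 and 298 CPM. Ly6e was at 1275, 1176 and 1240 CPM against 526, 559 and 592 CPM. Ifitm2, a close relative of Ifitm3, had log2 ratios of 0.07, 0.30 and 0.22, and reads of such paralogs may be split or shared by the counting. The family was therefore not uniform.

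Of 12 transcription factors and signal transducers 5 were higher. Irf7, the factor that amplifies type I interferon production, was at 188, 279 and 386 CPM against 13.8, 22.3 and 39.5 CPM, and Stat2 at 163, 227 and 177 CPM against 35.7, 34.3 and 30.1 CPM. Irf9, a part of the complex that binds the response element, had smaller log2 ratios of 0.91, 0.90 and 0.51, and Irf8, a factor of the monocyte lineage, 0.44, 0.14 and 0.36. Irf7 and Stat2 thus separated members from the rest, while Irf9 did not reach the 2-fold mark.

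Receptors and ligands did not follow the targets. None of 5 receptor genes was 2-fold higher. Ifnar1 stood at log2 ratios of -0.05 (-0.80 to 0.55), 0.22 (-0.29 to 0.65) and -0.04 (-0.40 to 0.28), Ifnar2 at -0.03, 0.28 and -0.30, Ifngr1 at -0.46, -0.52 and -0.19, Ifngr2 at 0.36, -0.03 and 0.00, and Il10rb at -0.11, 0.46 and 0.06. Of the 21 interferon ligand genes only 4 had any UMI in the 10550 cells, 23 UMIs in all, and none lay in a member. Ifng supplied 13 of them, 12 in T and NK cells, and the type I genes Ifnk, Ifnz and Ifna13 supplied the other 10. Ifnb1 had 0 UMIs in every library. At this depth a cell type that makes type I interferon was not detectable among the sorted cells, which were gated on F4/80.

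**Figure D3:**
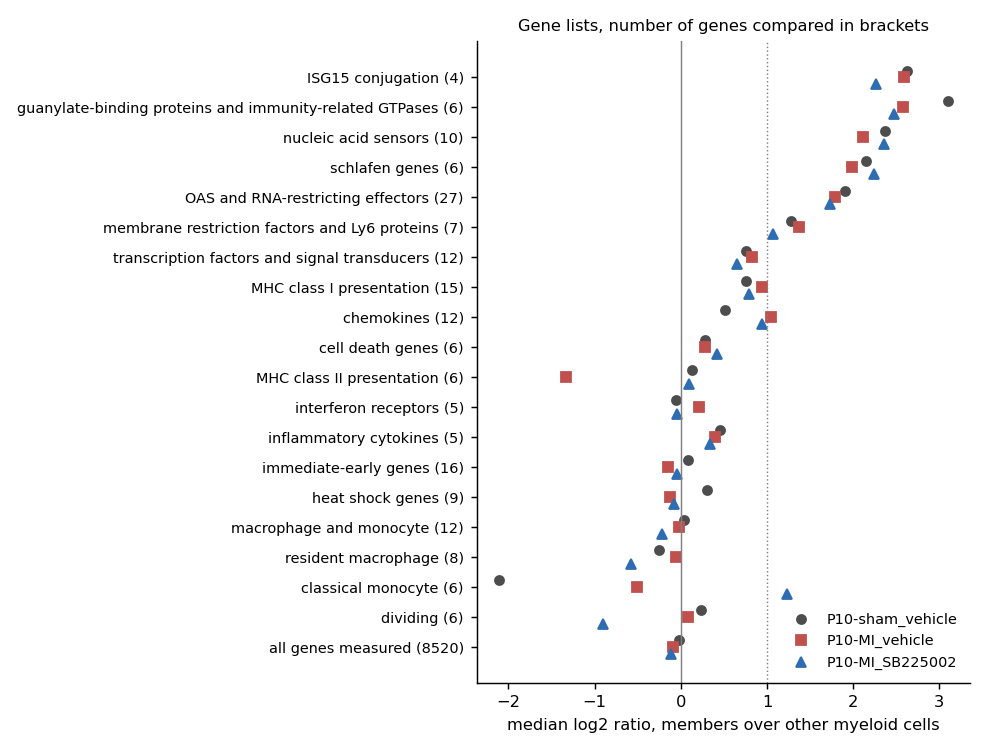
Median log2 ratio of members over other myeloid cells (x axis) for each gene list (y axis, genes with at least 10 CPM in the other cells in brackets), 1 symbol per library; the dotted line marks a 2-fold difference. Medians such as that of ISG15 conjugation (2.62, 2.59 and 2.26) lie right of it, that of transcription factors and signal transducers (0.75, 0.83 and 0.65) left of it, and all genes measured (-0.02, -0.09 and -0.11) near 0.

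Antigen presentation differed by class. For MHC class I, 4 of 15 genes were higher, with medians of 0.76, 0.94 and 0.79. Tap1, which pumps peptides into the endoplasmic reticulum, had log2 ratios of 1.63, 2.24 and 1.69, and the immunoproteasome subunit Psmb8 0.83, 0.94 and 0.94. B2m, the light chain, had ratios of 0.56, 0.47 and 0.33. For MHC class II none of 6 genes was higher. Its invariant chain Cd74 was at 210, 103 and 351 CPM in members and 161, 285 and 289 CPM in the other cells. The log2 ratios of Cd74 were 0.40, -1.45 and 0.28. The richest member supplied 63.5%, 27.9% and 15.5% of the class II UMIs of members. The sham level of this list thus rests largely on 1 cell, and a drop particular to the MI library cannot be read from it. Genes favoured by interferon gamma were mostly below 10 CPM in the other cells, and Irf1 was the 1 gene measured, at 1.16, 1.20 and 1.57.

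Chemokines that draw monocytes were high in members. Ccl12 stood at 3828, 2138 and 1339 CPM against 807, 347 and 400 CPM in the other cells, log2 ratios of 2.25 (2.15 to 2.34), 2.63 (2.52 to 2.73) and 1.74 (1.66 to 1.83). Ccl7 was at 950, 899 and 796 CPM against 445, 233 and 370 CPM, and Ccl2 at 1394, 1816 and 2004 CPM against 875, 600 and 895 CPM. All 3 encode ligands of CCR2. Ccl4 had log2 ratios of 1.11, 2.29 and 1.57. Together 3 of 12 chemokines (Ccl12, Ccl7 and Ccl4) were at least 2-fold higher in every library, and Ccl2 missed the mark in sham at 0.67. Members held these transcripts unevenly, with the richest cell supplying 18.7% of Ccl12 and 23.3% of Ccl2 UMIs in the sham library.

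Other genes that were higher included Fcgr1, the high-affinity receptor for IgG, at 509, 519 and 629 CPM with log2 ratios of 1.75, 1.84 and 1.60, the only 1 of 12 macrophage and monocyte markers to be so. Of 6 cell death genes Daxx was higher, at 2.30, 2.13 and 2.23, and Casp8 and Gsdmd, the pore former of pyroptosis, had ratios between 0.04 and 0.39. None of 5 inflammatory cytokines, 16 immediate-early genes or 9 heat shock genes passed in all 3 libraries. Fos had ratios of -0.07, -0.08 and 0.01 and Hspa8 0.45, -0.12 and 0.02. Transcripts that mark stress of dissociation thus did not separate members from the other cells.

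The 3 genes at least 2-fold lower in all libraries were Mgp, Sparc and Xist. Among C1q-high cells alone Sparc and Xist missed the 2-fold mark in at least 1 library and Mgp did not reach the CPM minimum, and after thinning the log2 ratios of Mgp (1.74) and Xist (0.26) turned positive in the MI library. Mgp, an inhibitor of calcification, and Sparc, a matrix protein, are made by fibroblasts. Mgp held 1, 5 and 6 UMIs in members, and its log2 ratios were -2.75 (-8.64 to -0.85), -3.76 (-5.53 to -2.68) and -3.92 (-5.48 to -2.91). The fibroblast markers behaved likewise, at 12.8, 23.7 and 22.9 CPM in all in members against 107, 290 and 149 CPM. Xist, which silences 1 X chromosome in female cells, had ratios of -1.57, -1.40 and -1.07. Of cells that had either Xist or Y-linked transcripts and not both, Xist was the one seen in 33.3%, 19.2% and 33.8% of members and in 41.3%, 31.2% and 50.2% of the other cells. Each pool thus held cells of both sexes, and the part of this makeup in the results was not tested.

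The share of members among myeloid cells was 0.871% (0.525 to 1.36) in P10-sham_vehicle, 1.27% (0.899 to 1.74) in P10-MI_vehicle and 2.61% (2.14 to 3.15) in P10-MI_SB225002. The MI library was 0.398 percentage points above sham (-0.213 to 0.980), an interval that includes 0. The SB225002 library was 1.34 points above the MI library (0.676 to 2.0) and 1.74 points above sham (1.06 to 2.38). Both differences were larger than the counting error, while the spread between animals or pools was not measured.

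These shares depend on depth, since a deep cell shows more rule genes. Across the libraries depth fell as the shares rose, with a median of 8747, 6667.5 and 5996 UMIs in the other myeloid cells. After thinning to 2000 UMIs, which left out 90, 268 and 442 myeloid cells below that depth, 4 of 2062, 12 of 2519 and 32 of 3256 cells still met the rule, or 0.194%, 0.476% and 0.983%. The difference between the SB225002 and MI libraries was then 0.506 points (0.0359 to 0.969), and between the MI and sham libraries 0.282 points (-0.0972 to 0.664). In cells of 8000 to 30000 UMIs the shares were 1.32%, 1.53% and 4.71%. In cells of 4000 to 8000 UMIs they were 0.299%, 1.52% and 2.15%, and here the MI library was 1.22 points above sham (0.209 to 2.19), while the difference of 0.630 points between the SB225002 and MI libraries had an interval that included 0 (-0.542 to 1.76). In cells of 500 to 4000 UMIs they were 0.331%, 0.519% and 0.729%, with intervals that overlapped. The order of the 3 libraries was the same in each of these, but which difference exceeded the counting error depended on the depth class.

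**Figure D4:**
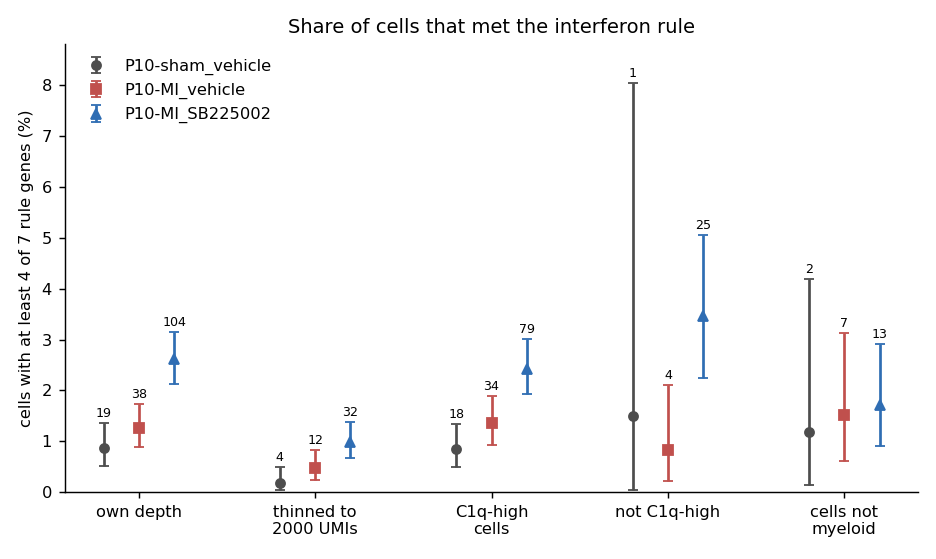
Share of cells (y axis, %) with at least 4 of the 7 rule genes, by class of cell (x axis) and library, with the number of such cells above each exact 95% interval. Among all myeloid cells the shares are 0.871%, 1.27% and 2.61%, and among cells that are not myeloid 1.18%, 1.53% and 1.71% with overlapping intervals.

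Most members were C1q-high with at least 0.3% of UMIs from the C1q genes. Their number was 18 of 19, 34 of 38 and 79 of 104 members, or 94.7%, 89.5% and 76.0%, against 96.9%, 83.8% and 82.0% of the other myeloid cells. The C1q-high share of SB225002 members was 13.5 points below that of MI members, with an interval from -25.6 to 2.78. Among myeloid cells that were not C1q-high, 1 of 67, 4 of 483 and 25 of 724 were members. The SB225002 share of 3.45% (2.25 to 5.06) lay 2.62 points above that of the MI library (0.867 to 4.34). Among C1q-high cells the shares were 0.851%, 1.35% and 2.42%, so the SB225002 library was the highest in both classes. With the C1q cut at 1% of UMIs, 68.4%, 42.1% and 29.8% of members were C1q-high.

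The 25 SB225002 members that were not C1q-high differed from the 79 that were in chemokines, monocyte markers and Isg15. The rule genes, by which both were picked, lay closer together except for Cxcl10. Ifit1 was at 446 against 420.4 CPM, Rsad2 at 495 against 537 CPM and Mx1 at 306 against 294 CPM, with intervals of the log2 ratio that include 0. Isg15 was higher in cells that were not C1q-high, 1262 against 721 CPM (0.81, 0.61 to 1.0). The rule gene Cxcl10 was lower in them at 299 against 985 CPM (-1.71, -2.06 to -1.40), as was Ccl12 at 457 against 1668 CPM. Ccl7 at 615 against 863 CPM and Ccl4 at 197 against 394 CPM were lower too. Other chemokines went the other way in the cells that were not C1q-high. Ccl2 was higher in them at 2899 against 1670 CPM (0.80, 0.67 to 0.92), and so was Cxcl2 at 334 against 133 CPM (1.33, 0.91 to 1.75). Markers of classical monocytes were higher in them, with Ly6c2 at 843 against 196 CPM, Ccr2 at 576 against 200 CPM and Plac8 at 2312 against 788 CPM. Low C1q and high monocyte markers thus went together within the members of this library, as a description of 1 pool.

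Within members the summed interferon programme lay at a like level in the 3 libraries, while single lists moved in opposite directions. All members had passed the same cut, detection of at least 4 rule genes. How far this cut sets the levels of the further interferon genes was not tested. The comparisons of MI with sham and of SB225002 with MI share the P10-MI_vehicle library. Of the 55 interferon-list genes that reached 100 CPM in either library, 4 were at least 2-fold higher in MI than in sham members and none was lower, and the ratio of the summed levels was 0.02 on the log2 scale (-0.03 to 0.07). The 4 were Ifitm1, Ifitm6, Slfn4 and Socs3, a feedback inhibitor of cytokine signalling at 1.58 (0.71 to 2.65). Ifitm1 and Ifitm6 had 1 UMI each in sham members, and without the neutrophil-marked cells described further on Ifitm6 was at 1.62 (-0.95 to 7.61). Between SB225002 and MI members 1 of 58 was higher (Slfn1 at 1.01) and 1 lower (Ifitm6 at -1.77, which turned to 3.09 without the neutrophil-marked cells), with a ratio of sums of -0.04 (-0.07 to 0.00). By list, MI over sham was -0.38 (-0.47 to -0.30) for OAS and RNA-restricting effectors and 0.62 (0.52 to 0.72) for membrane proteins, the latter 0.31 without the neutrophil-marked cells. SB225002 over MI was 0.61 (0.44 to 0.78) for ISG15 conjugation and -0.24 (-0.30 to -0.17) for OAS and RNA-restricting effectors. Over all genes 74 of 1930 (3.83%) were higher and 74 (3.83%) lower in MI than in sham members, and 37 of 1798 (2.06%) higher and 90 (5.01%) lower in SB225002 than in MI members.

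Single interferon genes moved a little. Isg15 was 0.94 (0.71 to 1.19) higher on the log2 scale in SB225002 than in MI members and 1.37 higher in the other myeloid cells of the same libraries. Irf7 followed at 0.46 (0.16 to 0.79). The rule genes, by which the members were picked, are given as a description only. Ifit3 was at 0.54 (0.26 to 0.85), Cxcl10 at 0.45 (0.23 to 0.67), Rsad2 at 0.15 (-0.09 to 0.41) and Mx1 at 0.26 (-0.07 to 0.61). For Cxcl10 1 cell supplied 26.1% of the MI and 16.0% of the SB225002 UMIs, a spread the interval does not cover. For MI over sham, Isg15 was at -0.53 (-0.85 to -0.20) and the rule gene Ifit1 at 0.09 (-0.30 to 0.49). Ifi27l2a was lower at each step, at -0.68 (-0.82 to -0.55) and -0.58 (-0.70 to -0.47).

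The myeloid background in which the programme lay also differed between libraries. Resident macrophage markers, such as the mannose receptor Mrc1 and the folate receptor Folr2, summed to 4893, 4036 and 1715 CPM in members and to 5755, 4373 and 2606 CPM in the other cells. Mrc1 was at 1933, 1492 and 532 CPM in members. Of 6 such genes compared 5 were at least 2-fold lower in SB225002 than in MI members, with a ratio of sums of -1.23 (-1.33 to -1.14). In the other cells Mrc1 had a log2 ratio of -0.67 between the same libraries, the same direction.

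Classical monocyte markers went the other way. They summed to 59.9, 598 and 2130 CPM in members and to 186, 807 and 739 CPM in the other cells, so members were below the other cells in sham (-1.59) and MI (-0.43) and above them in SB225002 (1.53). Ly6c2, a surface protein of inflammatory monocytes, had 0 UMIs in sham members and 108 and 372 CPM in those of the other libraries. Against a floor of 3 UMIs over the group for sham, MI members were at least 8.42-fold higher. Plac8 was at 12.8, 303 and 1203 CPM and Ccr2 at 42.8, 94.9 and 302 CPM in members. At 2000 UMIs a cell, 1 of 19, 10 of 37 and 62 of 104 members had a UMI of this list, or 5.26%, 27.0% and 59.6%, against 9.65%, 26.8% and 29.7% of the other cells. In the SB225002 library members were thus richer in monocyte transcripts than their neighbours at the same depth.

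Repair and lipid-associated genes were high in the SB225002 members, as they were in the other cells of that library. Spp1 (osteopontin) stood at 453, 2030 and 10415 CPM in members, a log2 ratio of 2.36 (2.25 to 2.47) between SB225002 and MI against 1.81 in the other cells, and was seen in 98 of 104 and 24 of 38 members. The richest cell supplied 49.1%, 34.2% and 21.7% of the Spp1 UMIs of members, a spread the interval does not cover. Arg1 (arginase 1) was at 519 against 55.4 CPM, with a log2 ratio of 3.20 (2.60 to 3.93) against 1.01 in the other cells. Thbs1 (thrombospondin 1) had a ratio of 2.95 (2.20 to 3.93), Vcan 2.44, Fabp5 2.22 and Gpnmb 1.89. Fabp4 was at 2.57, but turned to -3.00 after thinning and to -1.59 with at least 3 rule genes. The sum of the Gpnmb and Spp1 macrophage list was 1069, 2961 and 12814 CPM in members. Cd74 was also among the 10 highest, at 351 against 103 CPM.

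**Figure D5:**
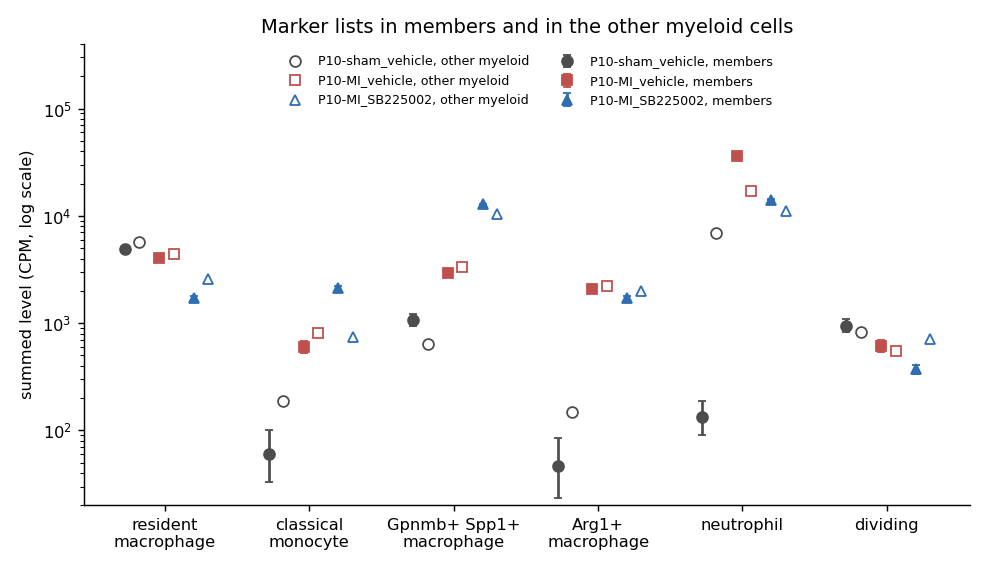
Summed level (y axis, CPM, log scale) of 6 marker lists (x axis) in members (filled, with exact 95% Poisson intervals) and other myeloid cells (open) of each library. Resident macrophage markers are at 1715 CPM and classical monocyte markers reach 2130 CPM in SB225002 members, and the neutrophil list spans 133 to 36121 CPM.

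Genes lower in SB225002 than in MI members were led by Saa3, an acute-phase apolipoprotein, at 51.6 against 1413 CPM (-4.76, -5.21 to -4.37), and by Ccl8, a chemokine of resident macrophages, at 85.1 against 409 CPM (-2.26). In MI members 1 cell supplied 56.2% of the Saa3 and 1 cell 78.7% of the Ccl8 UMIs. Of 13 immediate-early genes 3 were lower, with a ratio of sums of -0.59 in members. The other myeloid cells shifted alike, with sums of 3276 against 5258 CPM. The median log2 ratio of these genes was -0.62 in members and -0.61 in the other cells. Asprv1, Pglyrp1, Ngp, Lrg1, BC100530, Camp and Mmp9 filled most other places, and several of these are granule or secreted proteins of neutrophils. Gm4951, a predicted gene, completed the 10 lowest at -2.37.

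In the MI library nearly all S100a8 and S100a9 transcripts of members came from few cells. Cells with at least 5 of 8 neutrophil genes (Ly6g, Csf3r, Cxcr2, Retnlg, Camp, Ngp, Ltf and Mmp8) numbered 0, 2 and 5 among members and 36, 101 and 137 among the other cells. In the MI library these 2 cells held 13.1% of the member UMIs and 99.5% of those of S100a8 and S100a9, and without them the sum of both genes was 176 in place of 32098 CPM. In the SB225002 library it was 7176 in place of 12811 CPM, so that the other members there held a large part of it, and in sham it was 111 CPM. Without them 61 genes were higher and 57 lower in MI than in sham members, and 58 higher and 87 lower in SB225002 than in MI members. Pglyrp1, Lrg1, BC100530 and Mmp9 then turned to higher in SB225002, at 2.57, 0.84, 3.86 and 3.23.

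The highest ratios of MI over sham members were those of Camp, Retnlg, S100a9, Wfdc21, S100a8, Saa3, BC100530, Ngp, Pglyrp1 and Ifitm1. Camp (cathelicidin) and Retnlg had 0 UMIs in sham members and, against the same floor of 3 UMIs, were at least 85.5-fold and 81.2-fold higher in MI members. Without the neutrophil-marked cells, the 10 highest included Saa3 (7.98, 6.08 to 13.87, from 1 UMI in sham), Plac8 (4.20, 2.82 to 6.72, from 3 UMIs), Ccl8 (4.08), Fn1, which encodes fibronectin (3.95), and Mt2, a metallothionein (3.17). Fn1 was at 42.8 CPM in sham and 604 CPM in MI members. At the other end Myl2, a myosin light chain of cardiomyocytes, was at 150 and 26.4 CPM (-2.46), and Ube2c, a gene of dividing cells, at 231 and 42.2 CPM (-2.42). Dividing markers summed to 950, 609 and 371 CPM in members and to 821, 545 and 705 CPM in the other cells.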

How the data were processed

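The data were deposited as 1 raw table of UMI counts per gene and cell for each library, which the authors made from droplet libraries (BMKGENE DG1000). The submitters' processing notes name mm10 and Seurat 4.1.0; the read aligner, the counter and the annotation are not given in the sources used here, nor whether strand was used, so paralogs and overlapping genes may share counts. No column was from another sample (0).

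Cells with 500 to 30000 UMIs, 500 to 5000 genes and a mitochondrial share under 10% were kept. No doublet caller was run, so doublets remain. Counts were summed over members and over other myeloid cells of each library and given as CPM. Log2 ratios added 0.5 UMI, with exact conditional 95% intervals. Shares had Clopper-Pearson intervals. Differences of shares had intervals that joined these Clopper-Pearson limits by Newcombe's square-and-add step. Call rule: at least 2-fold, at 100 CPM or more in either sum, and in all 3 libraries for members against other cells, with at least 3 UMIs in the members of each where higher; lists used 10 CPM in the other cells. Member depth was 233797, 379307 and 1045774 UMIs in all, so the sham sums are the least precise. Named genes were the 7 rule genes, up to 4 genes per list with the highest CPM over members plus all interferon ligands and receptors, the 10 highest and 10 lowest by smallest or largest of 3 log2 ratios, and the 10 highest and lowest between libraries; further list genes named were chosen after their values were seen. The members and the 36 gene lists were chosen with earlier results of these data known. Alternatives were thinning to 2000 UMIs, other thresholds, DESeq2 1.42.0 size factors, edgeR 4.0.16 TMM factors and, chosen after seeing the data, leaving out neutrophil-marked cells. Steps were checked on simulated data. Python 3.11.15, NumPy 2.4.6, SciPy 1.17.1, pandas 2.3.3 and R 4.3.3 were used.

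Printed results of lists not named in the report follow, as summed CPM in members. T and NK markers were at 0, 79.1 and 15.3 CPM, B cell markers at 42.8, 15.8 and 57.4 CPM, endothelial markers at 34.2, 23.7 and 81.3 CPM, mural markers at 4.28, 15.8 and 3.82 CPM, cardiomyocyte markers at 141, 34.3 and 63.1 CPM, erythroid markers at 17.1, 15.8 and 8.61 CPM, dendritic cell markers at 12.8, 2.64 and 27.7 CPM, Ace+ Ly6c-low monocyte markers at 17.1, 63.3 and 94.7 CPM, and Arg1+ macrophage markers at 47.0, 2075 and 1723 CPM.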

Additional observations from a re-analysis of the deposited data

Results flagged for a closer look

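Members and other myeloid cells differed in opposite directions between conditions for the sum of 6 classical monocyte markers. The log2 ratio of members over other cells was -1.59 in P10-sham_vehicle and 1.53 in P10-MI_SB225002. The sham value rests on 14 UMIs in 19 members, and the difference between the libraries was not tested. Neutrophil markers showed the same kind of reversal, at -5.70 in P10-sham_vehicle and 1.09 in P10-MI_vehicle. In the MI library 2 neutrophil-marked cells held 99.5% of the S100a8 and S100a9 UMIs of members, and this difference was not tested either.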

How the results depend on the processing

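No paired analysis was possible because each condition has 1 library, so no replicate could be left out either. Thinning to 2000 UMIs gave shares of members of 0.194%, 0.476% and 0.983%, with differences of 0.506 points (SB225002 over MI) and 0.789 points (SB225002 over sham). A rule of at least 3 of 7 genes gave 1.97%, 2.20% and 3.89%, one of at least 5 gave 0.801% (MI) and 1.91% (SB225002), and a mitochondrial share under 5% gave 3.21% (SB225002). The C1q-high share of members was 100% in sham after thinning, with 5 rule genes and under 5% mitochondrial share, 84.4% in SB225002 after thinning, and 68.4%, 42.1% and 29.8% at a C1q cut of 1%, where MI was 26.3 and SB225002 38.6 points below sham (-26.3 and -38.6). Of members against other cells, genes at 10 CPM or more gave 164 higher and 29 lower, C1q-high cells alone 0 lower, cells that are not C1q-high 25 lower over 2 libraries, thinning 147 higher and 16 lower over 2 libraries, and leaving out cells above 20000 UMIs 6 lower; sham sums under 10000 UMIs were not used. Thinned, Mgp (1.74) and Xist (0.26) reversed in the MI library. In MI over sham, DESeq2 size factors gave 45 lower, TMM 43, at least 3 rule genes 29 and under 5% mitochondrial share 162; at 200 CPM there were 35 higher and 9 lower, and thinning gave no value. Without neutrophil-marked cells S100a9 (-0.62) and BC100530 (-0.13) reversed. In SB225002 over MI, 200 CPM gave 20 higher and 49 lower, thinning 340 higher and 669 lower, and leaving out neutrophil-marked cells 58 higher. Reversed there were, thinned, Fabp4 (-3.00), Asprv1 (0.17), Pglyrp1 (1.75), Ngp (1.86), BC100530 (5.62) and Camp (4.01); with at least 3 rule genes Fabp4 (-1.59); and without neutrophil-marked cells Pglyrp1 (2.57), Lrg1 (0.84), BC100530 (3.86) and Mmp9 (3.23). The larger thinned counts come with sums of few UMIs, and the other causes were not tested. Main calls shared with TMM were 68 of 70 genes higher in members, and with cells that are C1q-high alone 66. Few member cells, above all the 19 of sham, limit every value here.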
